A study of Lens culinaris with 18 samples.

Results

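Lcu.2RBY.1g038070, Lcu.2RBY.4g077560, Lcu.2RBY.5g065750 and Lcu.2RBY.6g035140 are the 4 vicilin genes of lentil (Lens culinaris) whose identifiers stand apart from those of the other listed vicilin genes. They were taken by identifier from the study's list of 16 vicilin genes, by a rule that uses no expression value, out of 58243 genes in the count tables. The other 12 genes of the list carry identifiers in runs beginning with 3g, 6g and 7g. The list accompanies the study's own results on these libraries, and how its genes were picked is not stated, so counts over it are not taken as independent evidence of a direction.

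Vicilins are the 7S globulins, trimeric storage proteins that legume embryos lay down in the protein storage vacuoles of cotyledon cells during seed filling and break down after germination. In lentil, vicilin is also the source of the allergen Len c 1. Vicilins are encoded by multigene families, and related copies can share reads, so the value of a single gene is less certain than the sum over the family.

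The libraries came from dissected embryos and from seed coats with the endosperm still attached, taken from mature green seeds of 3 lines. M11 (CN 45073) is a natural lentil line with a mutated allele of LcLTP3b, a lipid transfer protein gene. CDC Redmoon and CDC Gold are cultivars, and no treatment was applied. Each line had 3 libraries per tissue, 18 in 6 groups. The lines differ in their whole genetic background, so the effect of the LcLTP3b allele cannot be told apart from that of the background, and with no statement that the libraries came from separate plants, p-values measure only the spread between these libraries.

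The shallowest library, replicate 3 of the Gold embryos, held 3270275 counts and the deepest, of Gold seed coat, 24309401. LcLTP3b (Lcu.2RBY.4g013600) was read in every line, at 61.2 ± 2.87 CPM of the library total (counts scaled to a common library size) in M11 embryos against 22.3 ± 2.66 in Redmoon and 28.3 ± 5.32 in Gold (SD, n = 3). In seed coats M11 had 45.1 ± 1.91 CPM, Redmoon 1.54 ± 0.270 and Gold 1.52 ± 0.106. These values rest on library totals and were not scaled by the trimmed mean of M-values (TMM), used below. Its factors were 1.54 to 1.57 in M11 embryos, 0.988 to 1.00 in Redmoon and 0.631 to 0.661 in Gold. A larger factor lowers the scaled value, so the embryo values do not establish an excess of M11 over Gold. The labels of the cultivars do not carry from one tissue to the other: 116 genes were on in 1 cultivar (at least 2 CPM in all 3 libraries) and off in the other (at most 0.1 CPM in all 3) in both tissues, and for all 116 the cultivar in which they were on was the opposite one. Redmoon and Gold therefore mean the libraries so labelled, and fold changes that join embryo and seed coat libraries of a cultivar are also given with the labels crossed, Redmoon embryos with Gold seed coats and Gold embryos with Redmoon seed coats. Comparisons within a tissue hold for the labelled libraries, whichever cultivar they came from.

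As a check of the tissue labels, the summed counts of the other 12 vicilin genes were 12.3% ± 0.162 of each library's total in M11 embryos, 32.1% ± 1.02 in Redmoon and 30.3% ± 1.12 in Gold (SD, n = 3). In seed coat with endosperm they took 0.176% ± 0.0116 in M11, 0.607% ± 0.0279 in Redmoon and 0.159% ± 0.0114 in Gold. Embryo libraries thus held far more vicilin reads than any seed coat library, and among the seed coats those labelled Redmoon held the most. How much vicilin RNA in the seed coat libraries came from embryo tissue left on the dissected coats was not tested. Fewer cells that express a gene and less of its RNA per cell cannot be told apart in bulk tissue.

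The 4 genes fell into 2 abundant and 2 scarcer ones by reads. Ranked by counts not divided by transcript length, Lcu.2RBY.1g038070 was between the 6th and the 14th gene of each embryo library and Lcu.2RBY.4g077560 between the 15th and the 18th. Lcu.2RBY.6g035140 ranked from 99 to 485 in embryos, and Lcu.2RBY.5g065750 from 8972 to 11614. The first 2 genes held 98.2% ± 0.0416 of the counts of the 4 in M11 embryos, 97.3% ± 0.0226 in Redmoon and 99.7% ± 0.0173 in Gold (SD, n = 3).

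**Figure D1:**
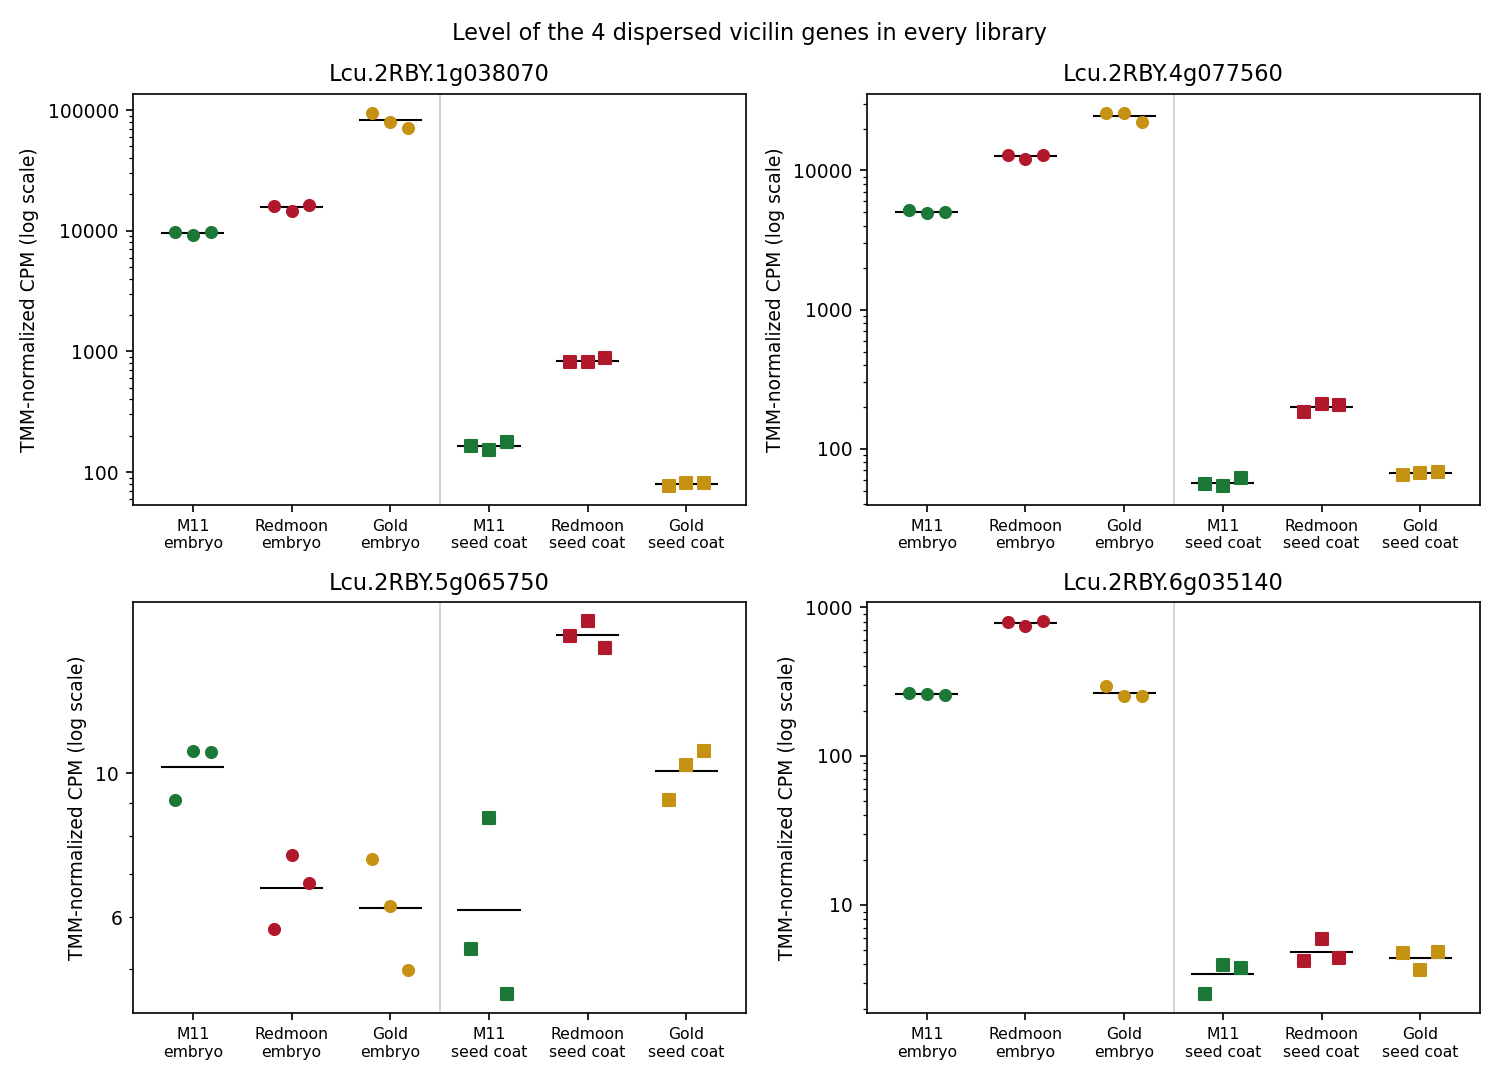
Level of each gene in each of the 18 libraries, in CPM scaled by TMM over all libraries (log axes), with circles for embryo, squares for seed coat with endosperm and a bar at the mean of the 3 libraries. Lcu.2RBY.1g038070, Lcu.2RBY.4g077560 and Lcu.2RBY.6g035140 are higher in every embryo library than in any seed coat library, while the groups of Lcu.2RBY.5g065750 lie between means of 6.15 and 16.4.

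Lcu.2RBY.1g038070, the gene of the 4 with the most reads, was lowest in M11 embryos and highest in Gold embryos. Its levels were 7008, 6589 and 6897 CPM in M11 embryos, 11420, 10438 and 11873 in Redmoon, and 69851, 58181 and 53579 in Gold, scaled by the trimmed mean of M-values (TMM) over the embryo libraries. No M11 library reached a Redmoon library, and no Redmoon library reached a Gold library. M11 was lower than Redmoon with a log2 fold change of -0.72 (SE 0.08, edgeR's quasi-likelihood test, Benjamini-Hochberg adjusted p = 9.54e-09), lower than Gold by a larger margin (log2 fold change -3.15, SE 0.08, edgeR adjusted p = 3.20e-21), and Redmoon was lower than Gold (-2.43, edgeR adjusted p = 1.22e-18). The difference from Redmoon rested on the scaling: relative to library totals the M11 libraries held 10758, 10303 and 10682 CPM and overlapped with the 11413, 10358 and 11715 CPM of Redmoon, and the log2 fold change was -0.08 (edgeR adjusted p = 0.346).

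In seed coat with endosperm the order of the lines was another one. Lcu.2RBY.1g038070 had 232, 212 and 245 TMM-scaled CPM in M11, 1127, 1178 and 1221 in Redmoon, and 104, 110 and 110 in Gold. M11 stood between the cultivars, with no overlap between any pair of lines. It was lower than Redmoon by a log2 fold change of -2.36 (SE 0.04, edgeR adjusted p = 2.47e-48) and higher than Gold by 1.09 (SE 0.05, edgeR adjusted p = 8.59e-30). Redmoon exceeded Gold by 3.44 on the log2 scale (edgeR adjusted p = 2.01e-57).

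Lcu.2RBY.4g077560 followed the same order of lines in embryos, over a narrower range. It had 3697, 3524 and 3568 TMM-scaled CPM in M11 embryos, 9182, 8740 and 9311 in Redmoon, and 19083, 18885 and 16604 in Gold. Again the 3 lines did not overlap. The log2 fold change of M11 was -1.34 against Redmoon (SE 0.06, edgeR adjusted p = 1.98e-15) and -2.34 against Gold (SE 0.07, edgeR adjusted p = 1.45e-20), and that of Redmoon against Gold was -1.003 (edgeR adjusted p = 6.79e-13). With library totals alone these values shrank to -0.69, -1.08 and -0.39, all still called by edgeR. Among the seed coats its levels were 78.4, 75.8 and 85.8 in M11, 256, 300 and 286 in Redmoon, and 87.7, 92.0 and 92.2 in Gold. Redmoon was far above both other lines, and every M11 library lay just below every Gold library. M11 was lower than Redmoon by a log2 fold change of -1.81 (SE 0.05, edgeR adjusted p = 1.04e-37) and lower than Gold by only -0.18 (SE 0.06, edgeR adjusted p = 0.00383), a difference not called with library totals alone (-0.10, edgeR adjusted p = 0.111).

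Lcu.2RBY.6g035140 had another pattern in embryos, in which Redmoon alone was high. Its levels were 190, 185 and 183 TMM-scaled CPM in M11, 567, 534 and 583 in Redmoon, and 217, 183 and 190 in Gold. The M11 and Gold libraries overlapped, and all 3 Redmoon libraries lay above them. M11 was lower than Redmoon with a log2 fold change of -1.59 (SE 0.06, edgeR adjusted p = 9.68e-17), and Redmoon was higher than Gold by 1.51 (edgeR adjusted p = 8.31e-16). Against Gold the value for M11 was -0.09 (SE 0.07, edgeR adjusted p = 0.24), and it became 1.17, higher in M11, when libraries were scaled by their totals (edgeR adjusted p = 1.39e-14).

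In seed coat with endosperm Lcu.2RBY.6g035140 had few counts. It ranked from 11325 to 14357 in these libraries, in which 22797 to 26061 genes had a count. It had 22, 37 and 37 counts in M11, 59, 60 and 67 in Redmoon and 150, 104 and 158 in Gold, or 3.52 to 5.51, 5.80 to 8.46 and 4.95 to 6.48 TMM-scaled CPM. The M11 libraries lay below the Redmoon libraries and overlapped with Gold. The log2 fold change of M11 against Redmoon was -0.46 (SE 0.21, edgeR adjusted p = 0.042), and it was not called without replicate 1 of the M11 seed coats (edgeR adjusted p = 0.228), without replicate 2 of the Redmoon seed coats (0.202) or with library totals alone (-0.30, 0.192). M11 minus Gold was -0.32 (SE 0.19, edgeR adjusted p = 0.126; called at 0.0423 without replicate 2 of the Gold seed coats), and Redmoon minus Gold was 0.15 (edgeR adjusted p = 0.433).

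Lcu.2RBY.5g065750 was scarce everywhere, and in embryos it was higher in M11 than in either cultivar. It had 201, 240 and 228 counts in M11 embryos, 81, 103 and 77 in Redmoon, and 71, 69 and 8 in Gold, where the library with 8 counts is the shallowest of the series. Scaled by TMM these were 6.51, 7.71 and 7.68 CPM in M11, 4.12, 5.37 and 4.88 in Redmoon, and 5.41, 4.55 and 3.73 in Gold. All M11 embryo libraries lay above all cultivar libraries, and the cultivars overlapped. M11 was higher than Redmoon by a log2 fold change of 0.61 (SE 0.13, edgeR adjusted p = 0.00021) and higher than Gold by 0.59 (SE 0.15, edgeR adjusted p = 0.00123). The cultivars differed by -0.02 (SE 0.17, edgeR adjusted p = 0.928), which became 0.60, higher in Redmoon, with library totals alone (edgeR adjusted p = 0.00262).

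The direction was the opposite in seed coat with endosperm, where M11 had the lowest values of Lcu.2RBY.5g065750. Its TMM-scaled levels were 7.52, 11.9 and 6.36 CPM in M11, 22.7, 24.7 and 21.6 in Redmoon, and 12.3, 14.05 and 14.6 in Gold. The lines did not overlap on this scale, although replicate 2 of M11 came close to the lowest Gold library. On library totals M11 and Gold overlapped, with 12.6 CPM in replicate 2 of M11 and 12.4 in replicate 1 of Gold. Their log2 fold change was then -0.59 (edgeR adjusted p = 0.000114). The log2 fold change of M11 was -1.41 against Redmoon (SE 0.14, edgeR adjusted p = 8.44e-14) and -0.67 against Gold (SE 0.14, edgeR adjusted p = 1.94e-05), and Redmoon exceeded Gold by 0.74 (edgeR adjusted p = 2.49e-09).

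Counted over the 4 genes, M11 embryos were lower than Redmoon for 3 and higher for 1, in a comparison that called 63.6% of all genes tested (32.1% lower, 31.5% higher). Against Gold 2 were lower, 1 was higher and 1 was not called, where 74% of all genes were called (37.1% lower, 36.9% higher). Redmoon against Gold in embryos called 2 lower and 1 higher, with 55.2% of all genes called (27.4% lower, 27.7% higher). For the seed coats, M11 was lower than Redmoon for all 4 genes, where 71.5% of all genes were called and 34.2% were lower. Against Gold 2 were lower and 1 was higher, with 72.8% of all genes called (36.9% lower, 35.9% higher). Redmoon was higher than Gold for 3 of the 4 and lower for 0, with 66.4% of all genes called (32.6% higher, 33.8% lower). With such shares of all genes differing between the lines, a call by itself says little of these 4 genes. The sizes of the differences say more, but in embryos they moved with the scaling. For Lcu.2RBY.1g038070, M11 minus Gold in embryo was -3.15 with TMM and -1.89 with library totals alone.

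The other vicilin genes were mostly lower in M11 embryos too. Of the 12, 10 fell and 2 rose in M11 relative to Redmoon, and their median log2 fold change was -1.87 beside -1.03 for the 4 genes. Against Gold 10 were lower and 2 higher, with medians of -2.74 and -1.21. For Redmoon against Gold 9 were lower and 3 higher, with medians of -0.71 and -0.51. The median over all genes tested lay within 0.01 of 0 in these 3 comparisons, where TMM places it by design, so it is no independent baseline. With library totals alone it was 0.64, 1.26 and 0.62. On that scale the summed counts of the 12 were 32.1% ± 1.02 in Redmoon embryos and 30.3% ± 1.12 in Gold.

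Among the seed coats 11 of the 12 other genes passed the filter on low counts. Against Redmoon, 10 were lower in M11 and 1 was higher, with a median of -2.13. Against Gold 5 were lower and 6 higher (median 0.22), and Redmoon was higher than Gold for 10 and lower for 1 (median 2.30). The gene left out, Lcu.2RBY.6g038600, had 0 counts in every seed coat library and the fewest counts of the 12 in embryos, and Lcu.2RBY.3g008770 had the most in both tissues.

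**Figure D2:**
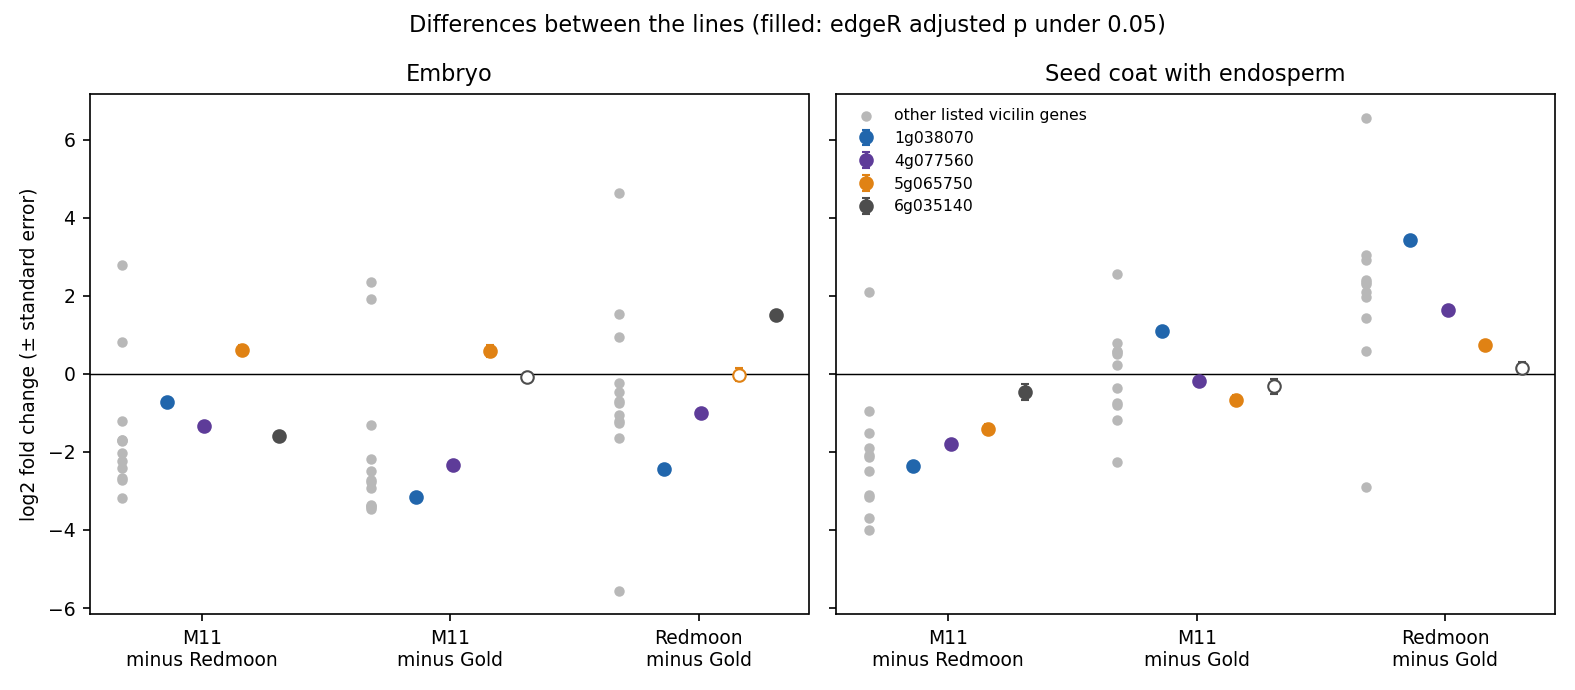
Log2 fold change between lines for the 4 genes (coloured, with the standard error of the edgeR fit; filled where the adjusted p is under 0.05) and for the other listed vicilin genes (grey), in embryo and in seed coat with endosperm. Lcu.2RBY.5g065750 is above 0 in both embryo comparisons of M11 and below 0 in both seed coat comparisons of M11.

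The embryo values moved with the scaling of the libraries, and so did the median of all genes. Reads of the whole vicilin list made up 13.99% ± 0.179 of M11 embryo libraries, 34.2% ± 1.12 of those of Redmoon and 35.4% ± 0.997 of those of Gold, and the part of that share in the shift was not tested. With library totals alone the median log2 fold change over all genes in embryos was 0.64 for M11 minus Redmoon, 1.26 for M11 minus Gold and 0.62 for Redmoon minus Gold, in place of 0.00, 0.01 and 0. The share of called genes that were higher then rose from 49.6% to 85.8%, from 49.8% to 87.8% and from 50.2% to 86.9%. A measure that needs no scaling between libraries is the share that each gene takes of the summed counts of the 16 vicilin genes within a library, used next.

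Within the family, Lcu.2RBY.1g038070 took 7.58, 7.40 and 7.72% of the vicilin counts in M11 embryos, 3.35, 3.13 and 3.32% in Redmoon, and 12.3, 11.2 and 9.76% in Gold. Redmoon was thus lowest and Gold highest, with M11 between them. Seed coats had the cultivars in the other order, with means of 14.8% (Redmoon) and 5.99% (Gold) and of 11.5% for M11. The log2 ratio of Redmoon over Gold was -1.76 in embryos and 1.31 in seed coats, and these 2 values differed by -3.07 (exact two-sided permutation of the labels within each tissue, p = 0.005, the smallest that the 400 arrangements can give; 0.007 adjusted over the 21 such tests run). With the labels crossed the 2 values differed by -0.45. The permutation assumes no difference between the lines in either tissue. Its p is therefore smallest whenever the lines separate in opposite directions, and it does not test whether the difference is the same in both tissues.

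The share of Lcu.2RBY.4g077560 changed least among the groups. It was 4.001, 3.96 and 3.99% in M11 embryos, 2.69, 2.62 and 2.60% in Redmoon, and 3.35, 3.64 and 3.03% in Gold. In seed coats it was 4.06, 3.99 and 4.02% in M11, 3.37, 3.78 and 3.47% in Redmoon, and 5.17, 5.13 and 4.77% in Gold. M11 had nearly one value in both tissues, and Redmoon had the lowest share in both. The log2 ratio of Redmoon over Gold was -0.34 in embryos and -0.51 in seed coats, a difference of 0.17 (exact permutation p = 0.57, also 0.57 adjusted, with the limit given above). Here crossing widened the difference, to -0.84.

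Like Lcu.2RBY.4g077560, the 2 scarcer genes took a larger share of the vicilin reads in M11 embryos than in those of either cultivar. A larger share is not a higher level. The whole list took 13.99% of all counts in M11 embryos, 34.2% in Redmoon and 35.4% in Gold. By TMM-scaled level, M11 minus Redmoon was -1.34 for Lcu.2RBY.4g077560, -1.59 for Lcu.2RBY.6g035140 and 0.61 for Lcu.2RBY.5g065750. For M11 minus Gold the log2 fold changes were -2.34, -0.09 and 0.59. Lcu.2RBY.6g035140 made up 0.206, 0.207 and 0.205% in M11 embryos, 0.166, 0.160 and 0.163% in Redmoon, and 0.0381, 0.0353 and 0.0347% in Gold. In seed coats its means were 0.239% in M11, 0.0855% in Redmoon and 0.330% in Gold, so that Redmoon over Gold went from a log2 ratio of 2.18 in embryos to -1.96 in seed coats (difference 4.14, exact permutation p = 0.005, adjusted 0.007; 0.22 crossed). Lcu.2RBY.5g065750 took 0.00704, 0.00866 and 0.00860% in M11 embryos, at most 0.00161% in any Redmoon and at most 0.00095% in any Gold library. In seed coats, where the family is scarce, it took means of 0.438% in M11, 0.291% in Redmoon and 0.755% in Gold. Its Redmoon over Gold value differed between the tissues by 2.12 as labelled (exact permutation p = 0.005, adjusted 0.007) and by -0.64 crossed. The limit of that permutation holds for both scarcer genes.

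Within a tissue, 22 of the 24 comparisons of such shares between lines did not overlap. The same count was not made for the other vicilin genes or for all genes. For levels, which are another measure, edgeR called 55.2% to 74% of all genes between lines. With no share over all genes for the same measure, the 22 are not read as particular to these 4 genes. Each of those 22 reached an exact two-sided permutation p of 0.1, the smallest that 3 libraries against 3 allow, so no such comparison could pass a threshold of 0.05. The 2 with overlapping libraries were Lcu.2RBY.5g065750 in seed coats of M11 and Redmoon (exact permutation p = 0.3) and Lcu.2RBY.6g035140 in seed coats of M11 and Gold (exact permutation p = 0.2). The 4 genes together took 11.8% ± 0.180 of the vicilin counts in M11 embryos, 6.07% ± 0.144 in Redmoon and 14.5% ± 1.46 in Gold (SD, n = 3), and in seed coats 16.2% ± 0.331, 18.7% ± 0.256 and 12.1% ± 0.480.

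**Figure D3:**
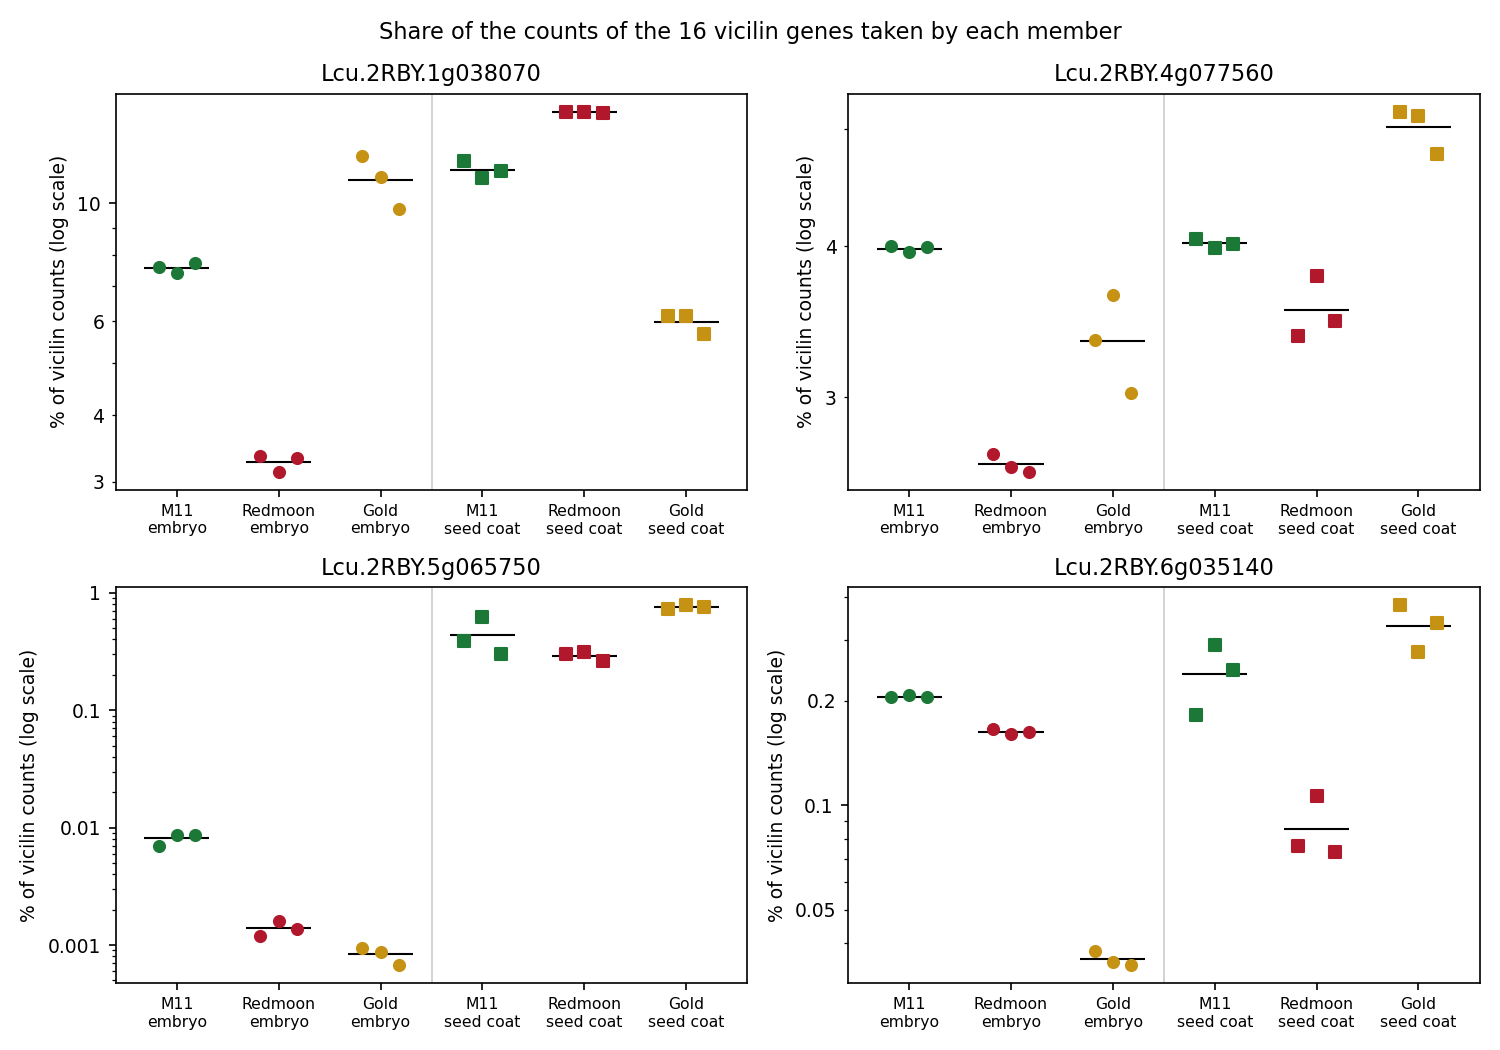
Percent of the summed counts of the 16 vicilin genes that each of the 4 genes took in each library (log axes), with circles for embryo, squares for seed coat with endosperm and a bar at the mean of 3 libraries. The share of Lcu.2RBY.1g038070 is lowest in Redmoon among embryos and lowest in Gold among seed coats, whereas that of Lcu.2RBY.4g077560 is lowest in Redmoon in both tissues.

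Ratios between the genes within a library, chosen after the values were seen, need neither a scaling nor the rest of the family. The counts of Lcu.2RBY.1g038070 over those of Lcu.2RBY.4g077560 gave ratios of 1.90, 1.87 and 1.93 in M11 embryos, 1.24, 1.19 and 1.28 in Redmoon and 3.66, 3.08 and 3.23 in Gold. In seed coats they were 2.96, 2.80 and 2.86 in M11, 4.40, 3.92 and 4.26 in Redmoon and 1.19, 1.20 and 1.19 in Gold. The embryo ratio of Redmoon was thus close to the seed coat ratio of Gold, and the seed coat ratio of Redmoon was the highest of all groups.

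As labelled, the mean ratio differed between the tissues 3.39-fold in Redmoon and 2.79-fold in Gold, against 1.51-fold in M11. With the labels crossed it differed 1.04-fold between Redmoon embryos and Gold seed coats and 1.26-fold between Gold embryos and Redmoon seed coats. Lcu.2RBY.1g038070 over Lcu.2RBY.6g035140 had means of 36.7 in M11 embryos, 20.02 in Redmoon and 307 in Gold, and of 50.4, 178 and 18.5 in the seed coats. The tissues differed 8.91-fold in Redmoon and 16.6-fold in Gold as labelled, 1.08-fold and 1.72-fold when crossed, and 1.37-fold in M11. Lcu.2RBY.4g077560 over Lcu.2RBY.6g035140 differed 2.61-fold and 5.98-fold as labelled, 1.04-fold and 2.19-fold crossed, and 1.11-fold in M11. The log2 ratio of Redmoon over Gold in embryos minus that in seed coats was -3.24, -7.20 and -3.97 for these 3 ratios as labelled, and 0.39, -0.67 and -1.06 crossed. These are descriptions, since the ratios were picked for such values.

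**Figure D4:**
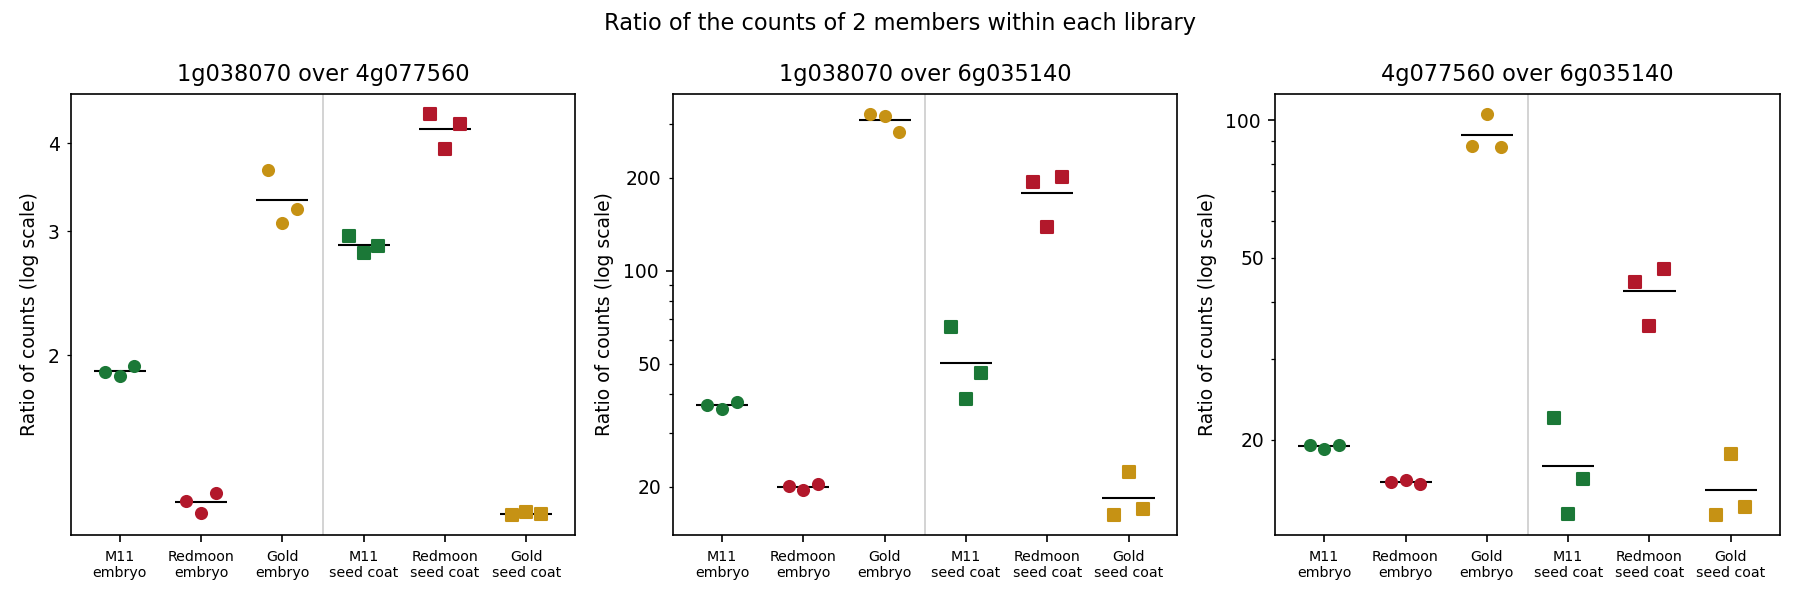
Ratio of the counts of pairs of the 4 genes in each library (log axes), with circles for embryo, squares for seed coat with endosperm and a bar at the mean of 3 libraries. In all 3 panels Gold is highest among embryos and Redmoon is highest among seed coats.

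Between the tissues, 3 of the 4 genes were far higher in embryo in all lines. Lcu.2RBY.1g038070 was higher by log2 fold changes of 5.86 in M11, 4.23 in Redmoon and 10.01 in Gold, in 1 fit of all 18 libraries, and by 7.62 and 6.62 with crossed labels. Lcu.2RBY.4g077560 was higher by 6.46, 5.98 and 8.53, and by 7.56 and 6.95 when crossed. Lcu.2RBY.6g035140 was higher by 6.25, 7.37 and 5.93, and by 7.47 and 5.84 when crossed. With crossed labels the cultivars lay closer together for the first 2 genes, and not for Lcu.2RBY.6g035140.

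Lcu.2RBY.5g065750 did not share this embryo excess. It was higher in embryo by 0.74 on the log2 scale in M11 (SE 0.15, edgeR adjusted p = 1.07e-05), and lower by -1.29 in Redmoon (edgeR adjusted p = 2.11e-13) and by -0.60 in Gold (edgeR adjusted p = 0.000364). With crossed labels the cultivars' values were -0.60 and -1.30. The M11 difference shrank to 0.32 with library totals alone (edgeR adjusted p = 0.0483), a scale on which its libraries overlapped between the tissues. On that scale the values of the cultivars as labelled grew to -2.18 in Redmoon and -2.12 in Gold. All other 12 vicilin genes were higher in embryo in each line, and the medians of their log2 fold changes were 6.63 (M11), 6.34 (Redmoon) and 9.13 (Gold), or 8.52 for Redmoon embryos over Gold seed coats and 7.03 for Gold embryos over Redmoon seed coats. Of all genes tested, 79.4%, 83.9% and 80.2% were called between the tissues in these lines, with 39.9%, 43% and 39.6% higher and 39.6%, 40.9% and 40.6% lower in embryo.

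**Figure D5:**
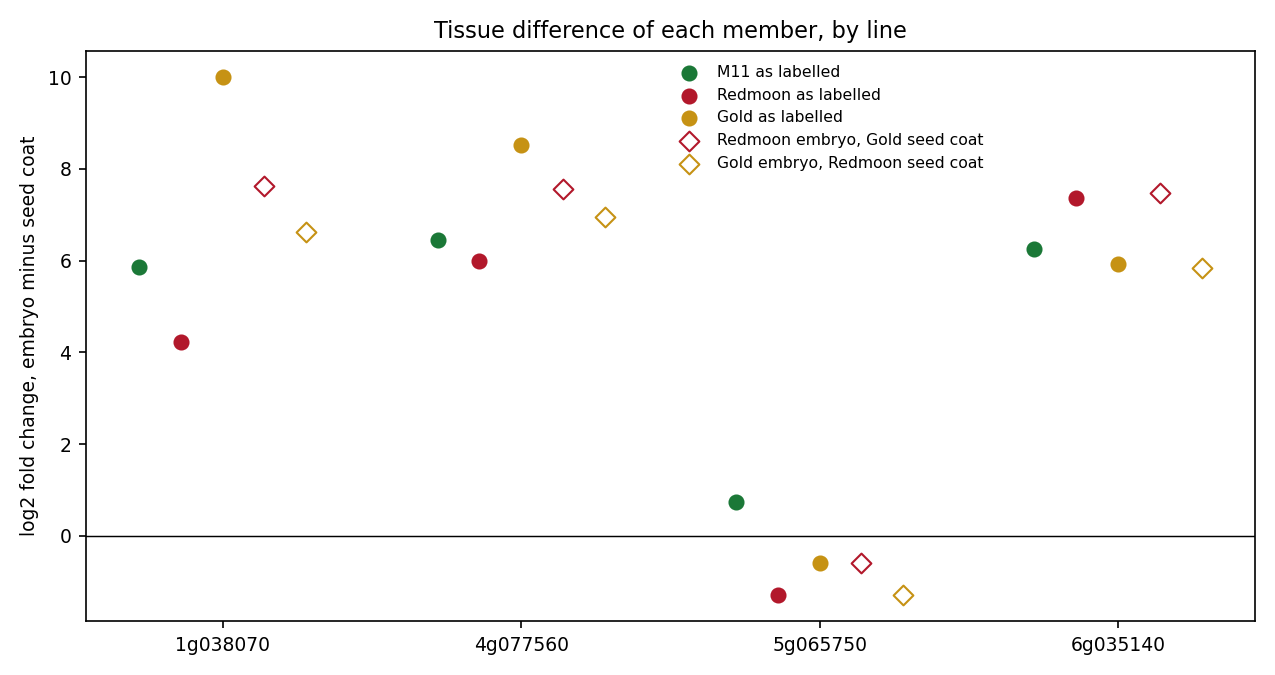
Log2 fold change of embryo over seed coat with endosperm for each gene in M11, Redmoon and Gold as labelled (filled circles) and with the labels of the cultivars crossed (open diamonds), from the edgeR fit of 18 libraries. Lcu.2RBY.5g065750 lies between -1.30 and 0.74, and the other 3 genes lie at 4.23 or above.

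The line differences of these genes depended on the tissue in nearly all cases tested. M11 minus Redmoon, embryo minus seed coat, gave 1.64 for Lcu.2RBY.1g038070, 0.48 for Lcu.2RBY.4g077560, 2.03 for Lcu.2RBY.5g065750 and -1.13 for Lcu.2RBY.6g035140 on the log2 scale, all called by edgeR in a test that called 47.2% of all genes (26.7% lower, 20.5% higher). M11 minus Gold gave -4.15, -2.07 and 1.34 for the first 3 and 0.32 for Lcu.2RBY.6g035140, which was not called (edgeR adjusted p = 0.157), where 55.3% of all genes were called (27.2% lower, 28.1% higher). Redmoon minus Gold gave -5.78, -2.54, -0.69 and 1.45, all called, as were 55.6% of all genes (24.7% lower, 30.9% higher).

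These tests join the tissues through the cultivar labels, and crossed labels, with each cultivar named by its embryos, turned several round. M11 minus Redmoon became -1.75 for Lcu.2RBY.1g038070 and -1.10 for Lcu.2RBY.4g077560, while Lcu.2RBY.5g065750 had 1.33 and Lcu.2RBY.6g035140 had -1.22. M11 minus Gold shrank to -0.75 for Lcu.2RBY.1g038070 and -0.49 for Lcu.2RBY.4g077560, both still called, and was 2.03 for Lcu.2RBY.5g065750 and 0.41 for Lcu.2RBY.6g035140, the last not called (edgeR adjusted p = 0.104). Redmoon minus Gold became 1.001, 0.61 and 0.70 for Lcu.2RBY.1g038070, Lcu.2RBY.4g077560 and Lcu.2RBY.5g065750, and 1.63 for Lcu.2RBY.6g035140. Lcu.2RBY.5g065750 in M11 against either cultivar thus kept its direction, higher in embryos relative to seed coats, with both ways of joining the labels. Its Redmoon minus Gold value as labelled was not called with library totals alone (-0.06) or without replicate 1 of the Gold embryos (edgeR adjusted p = 0.0515).

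Ordered over the 6 groups on the scale of all 18 libraries, Lcu.2RBY.1g038070 went from 82192 CPM in Gold embryos through 15664 in Redmoon embryos, 9579 in M11 embryos, 837 in Redmoon seed coats and 164 in M11 seed coats to 79.7 in Gold seed coats. All neighbours in that order differed by edgeR. Lcu.2RBY.4g077560 had the same first 4 groups, and then Gold seed coats at 66.9 stood above M11 seed coats at 57.3 (edgeR adjusted p = 0.00771). Lcu.2RBY.6g035140 began with Redmoon embryos at 782, followed by Gold and M11 embryos at 267 and 261, which were not told apart beyond their spread (edgeR adjusted p = 0.534). Its 3 seed coat groups, at 4.81, 4.39 and 3.40, were not called apart between neighbours (edgeR adjusted p = 0.617 and 0.0681). Lcu.2RBY.5g065750 was highest in Redmoon seed coats at 16.4, then in M11 embryos at 10.2 and Gold seed coats at 10.1, which were not called apart (edgeR adjusted p = 0.849). Its last 3 groups, Redmoon embryos, Gold embryos and M11 seed coats at 6.67, 6.20 and 6.15, were not called apart either (edgeR adjusted p = 1 and 0.611). This order of Lcu.2RBY.5g065750 rested on the scaling. On library totals M11 seed coats had a mean of 9.09 CPM, above Redmoon embryos at 4.75 and Gold embryos at 2.95 with no overlap. Gold seed coats at 13.7 CPM then lay above M11 embryos at 11.3, also with no overlap.

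The genes whose pattern over the 18 libraries was most like each of the 4 were found by Pearson's r of log2 CPM with 0.5 added, a description in which the contrast of embryo and seed coat weighs most. The genes named depend on that measure: by Spearman's rho, 0 of the 3 stayed for any of the 4, and with 5 CPM added 1 stayed for Lcu.2RBY.5g065750 and 0 for Lcu.2RBY.6g035140. For Lcu.2RBY.1g038070 they were the listed vicilin gene Lcu.2RBY.3g014450 (r = 0.995), Lcu.2RBY.4g000390 and Lcu.2RBY.4g014040. For Lcu.2RBY.4g077560 they were Lcu.2RBY.5g050090, the vicilin gene Lcu.2RBY.3g008770 (both r = 0.998) and Lcu.2RBY.5g065720. For Lcu.2RBY.6g035140 they were Lcu.2RBY.3g074990, Lcu.2RBY.4g047120 and Lcu.2RBY.2g036930 (all r = 0.995), but within the 9 seed coat libraries r was only 0.30, 0.61 and 0.74. As many as 268, 682 and 1112 genes had an r over 0.95 with these 3 genes.

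No gene had an r over 0.95 with Lcu.2RBY.5g065750. Nearest were Lcu.2RBY.4g051270, Lcu.2RBY.2g091370 and Lcu.2RBY.1g059720, with r from 0.89 to 0.90, and the nearest of the other 12 vicilin genes, Lcu.2RBY.7g031050, had an r of -0.14. Its r with the other 3 genes lay between -0.36 and -0.29 over 18 libraries, but differed in sign between the tissues. With Lcu.2RBY.1g038070, Lcu.2RBY.4g077560 and Lcu.2RBY.6g035140 it was -0.66, -0.83 and -0.33 within the 9 embryo libraries and 0.61, 0.84 and 0.69 within the 9 seed coat libraries. The 9 libraries of a tissue are 3 lines with 3 libraries each. An r within a tissue therefore carries the differences between lines given above and is no separate result. The 2 abundant genes had an r of 0.98 with each other, of 0.92 within the 9 embryo libraries and of 0.91 within the 9 seed coat libraries. Lcu.2RBY.6g035140 had an r of 0.90 with Lcu.2RBY.1g038070 over 18 libraries, of -0.27 within embryos and of 0.30 within seed coats. With Lcu.2RBY.4g077560 its values were 0.96, 0.11 and 0.54.

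In the order of identifiers, 3 of the genes had no other listed vicilin gene under the same leading number, and Lcu.2RBY.6g035140 was 301 identifiers from the nearest, Lcu.2RBY.6g038150. The 5 identifiers on each side of Lcu.2RBY.1g038070 were low, the highest being Lcu.2RBY.1g038090 with at most 11.1 CPM in a group, and 1 of the 10 had 0 counts throughout. Beside Lcu.2RBY.4g077560 the highest was Lcu.2RBY.4g077550, next to it, at up to 828 CPM. Beside Lcu.2RBY.6g035140 it was Lcu.2RBY.6g035130, also next to it, at up to 36.6 CPM. The scarcest gene had the most abundant neighbour: Lcu.2RBY.5g065720, 3 identifiers before Lcu.2RBY.5g065750, reached 9311 CPM in a group and was among the 3 genes with the highest Pearson's r to Lcu.2RBY.4g077560, while 8 of the 10 neighbours had 0 counts in all libraries. What Lcu.2RBY.5g065720 encodes is not given in the tables used here.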

How the data were processed

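The authors deposited whole-number read counts per gene, not normalized, in 6 tables of 18 libraries. The submitters' processing notes name STAR 2.7.10. How counts were made from the alignments, and with which build, annotation and rule for reads with several matches, is not given in the sources used here. Sequences, gene lengths and coordinates were not used. edgeR 4.0.16 in R 4.3.3 was used for the fits (filterByExpr, TMM, glmQLFit, glmQLFTest), per tissue for the lines (9 libraries, 18623 genes in embryo and 19386 in seed coat with endosperm) and over 18 libraries (22081 genes) for tissues and their interaction. All 4 genes passed the filters. A call is a Benjamini-Hochberg adjusted p under 0.05 over all genes tested. Shares were compared with exact permutation tests; ratios were tested in the same family, and their p-values are not reported because the ratios were chosen after the values were seen. The genes named were the 4 members, the other vicilin genes with the most and fewest counts, the 3 genes with the highest r for each member and the highest neighbour; Lcu.2RBY.6g038150 was named after its position was seen. The rule for the members uses identifiers only, but the rule and the lists were chosen with earlier results of these data known. Alternatives were DESeq2 1.42.0, its size factors, library totals alone, scaling without vicilin genes, no filter, other sets of libraries, crossed labels, a replicate block and leaving out each library. The fits were also run on simulated counts in which only a small part of the genes was changed, unlike these data. That run does not test the scaling between libraries. Replicates differed by more than sampling noise (chi-square per degree of freedom 1.55 to 11.9).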

Additional observations from a re-analysis of the deposited data

Results flagged for a closer look

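Of the 12 tests of whether a difference between lines was the same in both tissues, 11 were called by edgeR. The same tests called 47.2% of all genes for M11 minus Redmoon, 55.3% for M11 minus Gold and 55.6% for Redmoon minus Gold. The values below are log2 differences, the difference between lines in embryo minus that in seed coat with endosperm. For M11 minus Redmoon they were 1.64 for Lcu.2RBY.1g038070 (adjusted p = 1.65e-20), 0.48 for Lcu.2RBY.4g077560 (4.18e-05), 2.03 for Lcu.2RBY.5g065750 (2.95e-13) and -1.13 for Lcu.2RBY.6g035140 (1.53e-05). For M11 minus Gold they were -4.15 for Lcu.2RBY.1g038070 (4.23e-39), -2.07 for Lcu.2RBY.4g077560 (2.79e-26) and 1.34 for Lcu.2RBY.5g065750 (2.48e-07). For Redmoon minus Gold they were -5.78 for Lcu.2RBY.1g038070 (1.40e-46), -2.54 for Lcu.2RBY.4g077560 (5.52e-32), -0.69 for Lcu.2RBY.5g065750 (0.00427) and 1.45 for Lcu.2RBY.6g035140 (5.34e-12). With crossed labels the values of M11 minus Gold were -0.75 for Lcu.2RBY.1g038070, -0.49 for Lcu.2RBY.4g077560 and 2.03 for Lcu.2RBY.5g065750, those of M11 minus Redmoon -1.75, -1.10, 1.33 and -1.22 for the 4 genes in the order above, and those of Redmoon minus Gold 1.001, 0.61, 0.70 and 1.63. The 116 genes that were on in opposite cultivars in the 2 tissues stand beside all of these values, and what part an exchange of labels had in them was not tested.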

How the results depend on the processing

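Values are log2. With library totals alone, M11 minus Redmoon in embryo was -0.077 for Lcu.2RBY.1g038070, M11 minus Gold in embryo was 1.17 for Lcu.2RBY.6g035140 and Redmoon minus Gold in embryo was 0.60 for Lcu.2RBY.5g065750, which put 2 genes higher in each of the latter comparisons. M11 minus Redmoon in seed coat was -0.30 for Lcu.2RBY.6g035140, M11 minus Gold in seed coat was -0.10 for Lcu.2RBY.4g077560 (1 gene lower in place of 2), and the tissue dependence was 1.41 for Lcu.2RBY.6g035140 in M11 minus Gold (2 genes higher) and -0.062 for Lcu.2RBY.5g065750 in Redmoon minus Gold. Crossed labels, added after seeing the data, gave tissue dependences of -1.75 and -1.10 for Lcu.2RBY.1g038070 and Lcu.2RBY.4g077560 in M11 minus Redmoon (3 genes lower, 1 higher), and of 1.001, 0.61 and 0.70 for Lcu.2RBY.1g038070, Lcu.2RBY.4g077560 and Lcu.2RBY.5g065750 in Redmoon minus Gold (0 lower, 4 higher).

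Shares of all counts in place of vicilin counts gave, for Lcu.2RBY.1g038070, Lcu.2RBY.4g077560, Lcu.2RBY.5g065750 and Lcu.2RBY.6g035140 in that order, -0.077, -0.69, 1.25 and -0.95 (M11 over Redmoon, embryo), -1.89, -1.08, 1.94 and 1.18 (M11 over Gold, embryo), -2.19, -1.65, -1.25 and -0.34 (M11 over Redmoon, seed coat) and 3.36, 1.55, 0.67 and 0.10 (Redmoon over Gold, seed coat). M11 over Gold in seed coat was 1.17 and -0.10 for the first 2. By Spearman's rho 0 of the 3 genes most like each member stayed among them. With 5 CPM added, 1 stayed for Lcu.2RBY.5g065750 and 0 for Lcu.2RBY.6g035140.

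Leaving out 1 library at a time changed the call of 3 results for Lcu.2RBY.6g035140, with values from -0.58 to -0.30 (M11 minus Redmoon, seed coat), from -0.44 to -0.15 (M11 minus Gold, seed coat) and from 0.17 to 0.45 (tissue dependence, M11 minus Gold, where the members higher were 1 to 2), and of 1 for Lcu.2RBY.5g065750, from -0.78 to -0.56 (tissue dependence, Redmoon minus Gold). Same-numbered libraries did not deviate together (r from -0.074 to 0.155 in embryo and from -0.040 to 0.016 in seed coat), and a replicate block changed no call of the 4 genes (0.61 for Lcu.2RBY.5g065750, M11 minus Redmoon in embryo). The low counts of Lcu.2RBY.6g035140 in seed coat and of Lcu.2RBY.5g065750 in the shallowest Gold embryo library limit their precision.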
